A study of Schizosaccharomyces pombe with 56 samples.

Results

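The genes that encode the proteins of the large (60S) subunit of the cytosolic ribosome in fission yeast, Schizosaccharomyces pombe, were examined for H3K9me2, the dimethylated form of lysine 9 of histone H3. The members are all annotated protein-coding genes whose symbol is rpl or rpp followed by a digit. Of 86 such symbols, 4 were left out because the annotated product is a subunit of RNase P or RNase MRP (rpp1, rpp21, rpp40 and the L7-like rpl701), which left 82 of 5113 annotated protein-coding genes. The 82 genes make 46 proteins, of which 14 have 1 gene, 28 have 2 and 4 have 3, and they lie on chromosomes I, II and III with 32, 30 and 20 genes. The rule uses gene symbols and products and no measured value, but it was set with earlier results of these data known. A member was given each listed H3K9me2 region that overlapped its gene body by at least 1 bp, and 57 members lay under 56 different regions of 2192.

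Chromatin was immunoprecipitated with an antibody to H3K9me2 and sequenced (ChIP-seq). The values used compare wild-type cells (strain 975 h+) 24 h after transfer from supplemented minimal medium (EMM) to the same medium without nitrogen with wild-type cells at 0 h, and 6 H3K9me2 libraries are labelled for either time. The series holds 56 libraries in all, and its libraries of wild type at 1 h, of the strains clr4D and ago1D, and of H3K9me3 were not used here, so whether a signal depends on the methyltransferase Clr4 was not tested. The authors' deposited table gives 1 mean per group and region in normalised reads, with no depth and no spread per library, so no SD stands beside these means.

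In fission yeast, H3K9me2 is placed by Clr4 and marks the silent heterochromatin of centromeres, telomeres and the mating-type locus. Ribosomal protein genes lie in euchromatin, are among the most strongly transcribed genes of growing cells, and are turned down together when nitrogen runs out. Their promoters typically carry a HomolD box, which stands in for the TATA box, and often a HomolE box beside it. Many of these proteins are encoded by a pair of near-identical genes at separate loci.

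Over 32 of the 82 large-subunit genes (39.0%) lay a region that was higher at 24 h at an FDR of 0.05 in the authors' deposited table, and over none of them lay a region that was lower. Among all 5113 protein-coding genes, 10.5% lay under a region that was higher at 24 h and 0.196% under one that was lower. Of the remaining members, 13 lay under a region that was tested without passing, 12 under a region listed with a p of 1, and 25 under no region. Counting only genes under a tested region, the share was 32 of 45 members (71.1%), against 31.8% of all genes under a tested region. The 32 genes lay under 31 regions, because rpl35 and rpl902 shared 1. By region, 31 of 56 over members were higher (55.4%), against 20.7% of all regions, and 31 of 44 tested ones (70.5%), against 32.7% of all tested regions. Over these 31 regions the 24 h mean ran between 7.08 and 77.3 normalised reads with a median of 21.9. The 0 h mean was 0.770, the minimum of the table, in 29 of them. Among all 453 regions higher at 24 h, 400 (88.3%) had a 0 h mean at that minimum, so this is no property of the members alone. The median log2 change (24 h minus 0 h) over all 56 member regions was 4.25, against 2.43 over all 2192 regions. A 0 h mean at the minimum was found in 51 of the 56, against 52.6% of all regions. These 2 medians therefore depend on it, and with every mean held at no less than 3 counts per library they were 2.77 and 1.70. No member region had a 24 h mean below its 0 h mean, but for the 51 at the 0 h minimum this was fixed in advance. The lowest 24 h mean of any region was 0.771, above the 0 h minimum of 0.770, so those regions could not have been lower. Each call rests on few libraries, as described below. limma on recovered library values called 0 of the 32 genes (adjusted p = 0.611 in each, Benjamini-Hochberg), and 6 of them had an unadjusted p under 0.05. The same fit called 0 of all 2174 regions, with a lowest adjusted p of 0.611, so it does not set these genes apart. Libraries without recovered signal entered that fit as 0, which sets part of the spread within each group.

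**Figure D1:**
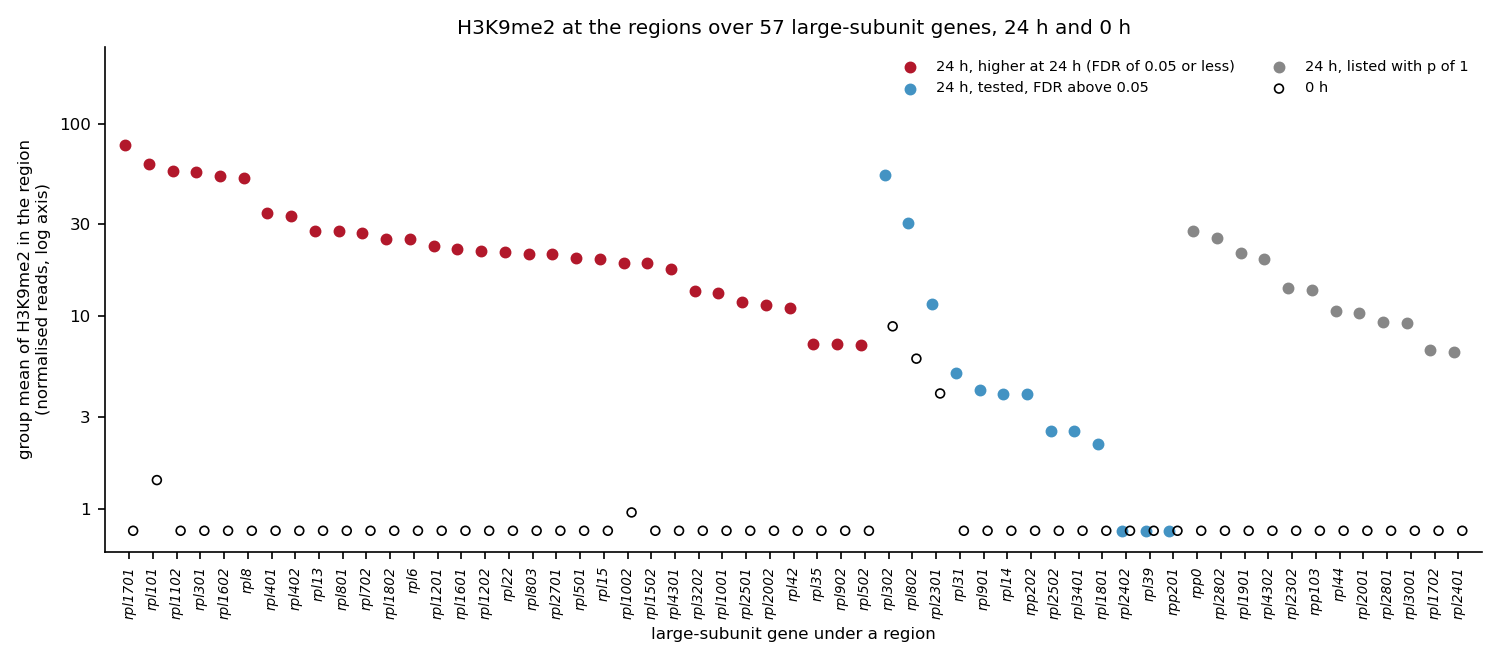
Group means of H3K9me2 in normalised reads (log axis) for the 57 large-subunit genes under a region, with filled points for 24 h coloured by call and open circles for 0 h. The 32 genes called higher had 24 h means between 7.08 and 77.3, while nearly all 0 h means lay at the table's minimum of 0.770.

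Among the proteins near the peptidyl transferase centre and the exit tunnel, values are given for the genes of L3, uL4 and L17. rpl301, 1 of 2 genes for L3 (uL3), which reaches towards the peptidyl transferase centre, had a region at chrI:1756240-1758787 (coordinates of the deposited regions are on ASM294v2). Its recovered signal above the minimum was 74.4, 133 and 71.0 normalised reads in 3 libraries at 24 h (called A, B and C here) and 0 in the others, against 0 in every library at 0 h. The group mean was 56.4 at 24 h and 0.770 at 0 h, at least 24.4-fold higher at 24 h when the 0 h mean is taken at a floor of 3 counts per library (2.31 normalised reads), with an FDR of 0.000845 in the authors' deposited table. Of this region, 52.5% lay over the neighbour mde10, a peptidase gene, and 42.8% over rpl301. The copy rpl302 (chrI:4917812-4918819) had 82.6, 91.0 and 92.0 normalised reads in libraries A, B and C at 24 h, against 30.1 and 10.4 in libraries A and B at 0 h (labels given separately at each time). Its means of 53.9 at 24 h and 8.86 at 0 h differed by 2.60 on the log2 scale, which did not pass (FDR of 0.200 in the authors' deposited table). The recovered values did not overlap in the libraries with signal, but at both times other libraries stood at the minimum.

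The upstream and coding sequences of the 2 copies are shown because they are the pair with the longest identical stretch, 848 bp, so reads of either gene could be placed at the other. The sources used here do not say how reads with several matches were placed. The 120 bases before the annotated gene start are unlike each other; capitals mark exact HomolD (CAGTCACA) or HomolE (ACCCTACC) matches on either strand (RefSeq, ASM294v3; rpl301 chrI:1755965-1756084, plus strand; rpl302 chrI:4919028-4919147, minus strand).
rpl301 upstream: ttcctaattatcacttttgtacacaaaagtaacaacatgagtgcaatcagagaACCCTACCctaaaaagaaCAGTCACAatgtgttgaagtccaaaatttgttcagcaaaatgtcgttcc
rpl302 upstream: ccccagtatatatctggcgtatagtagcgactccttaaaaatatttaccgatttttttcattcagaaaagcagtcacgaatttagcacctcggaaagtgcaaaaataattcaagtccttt
Of the first 90 coding bases 15 differ, shown in capitals.
rpl301 coding: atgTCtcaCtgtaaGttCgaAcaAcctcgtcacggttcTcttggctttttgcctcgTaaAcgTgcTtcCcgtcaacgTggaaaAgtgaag
rpl302 coding: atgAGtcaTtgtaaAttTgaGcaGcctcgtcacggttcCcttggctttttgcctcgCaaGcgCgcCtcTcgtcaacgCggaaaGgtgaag

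The 2 genes for uL4, which lines the exit tunnel, were both called higher with like means. rpl401 (chrII:2143248-2144218) had 122 and 46.0 normalised reads in libraries B and C at 24 h, with a mean of 34.4, against 0.770 at 0 h. For rpl402 (chrII:3636544-3637603) the values were 76.7 and 86.0, with a mean of 33.3 at 24 h and 0.770 at 0 h. Library A and the libraries without recovered signal were at the minimum for both copies, so both means rest on B and C. The 2 copies were 89.6% identical over the coding sequence with no identical stretch beyond 41 bp, and 10 of their first 90 coding bases differ (capitals).
rpl401 coding: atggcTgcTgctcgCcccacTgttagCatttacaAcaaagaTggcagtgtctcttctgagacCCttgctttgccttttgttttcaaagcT
rpl402 coding: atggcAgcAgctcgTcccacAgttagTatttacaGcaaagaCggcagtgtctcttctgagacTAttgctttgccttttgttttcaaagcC

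For L17 (uL22), which also lines the tunnel, the copies were far apart. rpl1701 had the highest 24 h mean of the members called, 77.3 against 0.770 at 0 h, at least 33.5-fold higher, with 290 and 93.0 normalised reads in libraries B and C at 24 h. That region (chrII:1729018-1733889, 4872 bp wide) lay for 88.7% of its width over osh2, the neighbouring gene for a sterol transfer protein, and for 11.5% over rpl1701, so its level is mainly that of the neighbour. rpl1702 had 29.5 normalised reads in library B alone at 24 h, with a mean of 6.68, against 0.770 at 0 h, and was listed with a p of 1. The copies are shown because they are the pair with the largest difference in 24 h mean, 70.7 normalised reads, while 13 of their first 90 coding bases differ.
rpl1701 coding: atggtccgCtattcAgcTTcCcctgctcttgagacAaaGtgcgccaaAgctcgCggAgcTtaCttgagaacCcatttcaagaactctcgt
rpl1702 coding: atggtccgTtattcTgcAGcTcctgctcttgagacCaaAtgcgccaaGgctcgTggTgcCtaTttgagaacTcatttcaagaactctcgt

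The 2 proteins that bind the 5S rRNA, L5 (uL18) and L11 (uL5), had 3 of 4 genes under a region higher at 24 h. rpl501 had 76.7 and 20.0 normalised reads in libraries B and C and a mean of 20.1 at 24 h, and rpl502 had 21.6 and 10.0 with a mean of 7.08, both against 0.770 at 0 h. rpl1102 had 188 and 94.0 in libraries B and C, with a mean of 57.1 at 24 h and 0.770 at 0 h. Its region of 5275 bp lay for 73.8% over pyr1, the gene for pyruvate carboxylase, and for 9.74% over rpl1102. The other copy, rpl1101, lay under no region.

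uL11 lies at the base of the stalk of P proteins, which recruits translation factors. Both genes for uL11 were higher at 24 h: rpl1201 had 6.70, 48.7 and 56.0 normalised reads in libraries A, B and C, and rpl1202 had 1.49, 47.1 and 57. Their means were 23.1 and 21.9 at 24 h, against 0.770 at 0 h for both. Their coding sequences were 99.6% identical, with an identical stretch of 482 bp, so the near-equal values of rpl1201 and rpl1202 cannot be assigned to 1 copy. Of the 7 rpp genes, which encode uL10 (rpp0) and the acidic proteins P1 and P2, none was under a region that passed. rpp0 had 135 normalised reads in library B and 0 in the others at 24 h, against 0 in every library at 0 h. Its mean was 27.8 at 24 h and 0.770 at 0 h, and its p was listed as 1. The gene rpp103 had 58.3 and 6.00 in libraries B and C with a p of 1, rpp202 had 16.0 in library B with an FDR of 0.125 in the authors' deposited table, and rpp201 was at the minimum at both times. The genes rpp101, rpp102 and rpp203 lay under no region.

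The protein uL1, which forms the stalk at the site where the emptied tRNA leaves, had 1 of its 2 genes under a called region. rpl101 had 260 and 43.0 normalised reads in libraries B and C at 24 h, against 3.2 in library A at 0 h, a recovered count of 5 reads. The means were 61.4 at 24 h and 1.41 at 0 h (log2 change 5.44, FDR of 0.00494 in the authors' deposited table). Of that region's 5625 bp, 88.5% lay over rrp5, a gene for ribosome assembly, and 11.3% over rpl101. The second copy, rpl102, lay under no region.

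All 3 genes for uL2, a protein of the subunit's core, lay under a region, and 2 passed. rpl801 had 86.2 and 48.0 normalised reads in libraries B and C with a mean of 27.6 at 24 h, and rpl803 had 18.6, 55.9 and 27.0 in A, B and C with a mean of 21.1, both against 0.770 at 0 h. The aldose reductase gene yak3 held 49.0% of the region of rpl801, and rpl801 itself 34.3%. rpl802 had 11.2, 75.1 and 62.0 in libraries A, B and C at 24 h, against 26.3 in library A at 0 h. Its means of 30.4 at 24 h and 6.02 at 0 h did not pass (log2 change 2.34, FDR of 0.256 in the authors' deposited table). The 24 h mean of rpl802 was the highest of the 3 copies, and its 0 h mean was the only one of the 3 above the minimum. For uL13, rpl1602 had 174 and 88.0 normalised reads in libraries B and C and a mean of 53.2 at 24 h, and rpl1601 had 40.7 and 67.0 with a mean of 22.3, both against 0.770 at 0 h. The region of rpl1602 lay for 69.3% over frs1, a tRNA synthetase gene, and the third copy, rpl1603, lay under no region. Both genes for L10 (uL16), a protein that joins the subunit late in assembly, were higher. rpl1002 had 1.49, 57.5 and 32.0 in libraries A, B and C with a mean of 19.0 at 24 h, against 0.958 at 0 h, which is 1 recovered count in 1 library. rpl1001 had 51.9 and 10.0 in libraries B and C, with means of 13.2 at 24 h and 0.770 at 0 h.

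Of the 14 proteins with 1 gene among the members, 7 had that gene under a region higher at 24 h. rpl8 (eL8) had 44.6, 101 and 111 normalised reads in libraries A, B and C at 24 h, against 0 in every library at 0 h. The mean of 52.2 at 24 h was at least 22.6-fold above 0 h, and with 59.6 normalised reads per kb this region had the highest density of all member regions. rpl702 (uL30), whose relative rpl701 was left out by its product, had 40.2, 55.9 and 36.0 in libraries A, B and C, and rpl6 (eL6) had 11.2, 70.3 and 41.0. The region of rpl6 also lay wholly within the annotated body of str2, a siderophore transporter gene, so its signal cannot be assigned to 1 of these overlapping genes. In the other 4, rpl13 (eL13), rpl22 (eL22), rpl42 (eL42) and rpl35 (uL29), signal was recovered from libraries B and C only, with 24 h means of 27.7, 21.5, 11.0 and 7.16, against 0.770 at 0 h in each. The regions of rpl13 and of rpl35 also overlapped a neighbouring ribosomal protein gene, rps1602 and rpl902. Of the remaining single genes, rpl31, rpl14, rpl39, rpl44 and rpp0 lay under regions that did not pass, and rpl26 and rpl29 under none.

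Close to the threshold, rpl35 with rpl902 and rpl502 were just inside, both regions with an FDR of 0.0349 in the authors' deposited table and 24 h means of 7.16 and 7.08, against 0.770 at 0 h. Just outside were rpl31, with 10.4 and 11.0 normalised reads in libraries B and C and a mean of 5.05 at 24 h (FDR of 0.0664 in the authors' deposited table), and rpl901, with 16.8 in library B alone and a mean of 4.12 (FDR of 0.118), both against 0.770 at 0 h. Apart from rpl302 and rpl802, the only other member without a call that had 0 h signal was rpl2301, which encodes L23 (uL14). It had 38.3 and 16.0 normalised reads in libraries B and C at 24 h, against 16.0 in library B at 0 h, and its means of 11.6 at 24 h and 3.97 at 0 h overlapped in library values (FDR of 0.474 in the authors' deposited table). Over the remaining members tested without passing, the 24 h means lay between 0.771 and 5.05 normalised reads.

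The regions lay along the transcribed gene and left out its start. In 29 of the 32 called genes the region began after the annotated gene start, at a median of 124.5 bp into the gene. The same held for 96.6% of all regions higher at 24 h, set against the gene with most overlap, so it is no property of these genes alone. In 19 of the 32 genes the region lay wholly inside the gene, and in 23 at least 50% of the region did. Of all regions higher at 24 h, 82.1% lay wholly inside 1 protein-coding gene and 96.5% had at least 50% inside 1. Those shares take any gene that held the region and the member counts only the member, so regions inside genes are no property of these genes alone. Of the overlap between called genes and their regions, 88.4% was coding sequence, 8.98% untranslated exon and 2.64% intron, while the whole genes were 75.8% coding, 18.2% untranslated and 5.98% intron. rpl401 was an example, with all 971 bp of its region in its coding sequence of 1092 bp. The region of rpl402 held 1049 of its 1092 coding bases.

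**Figure D2:**
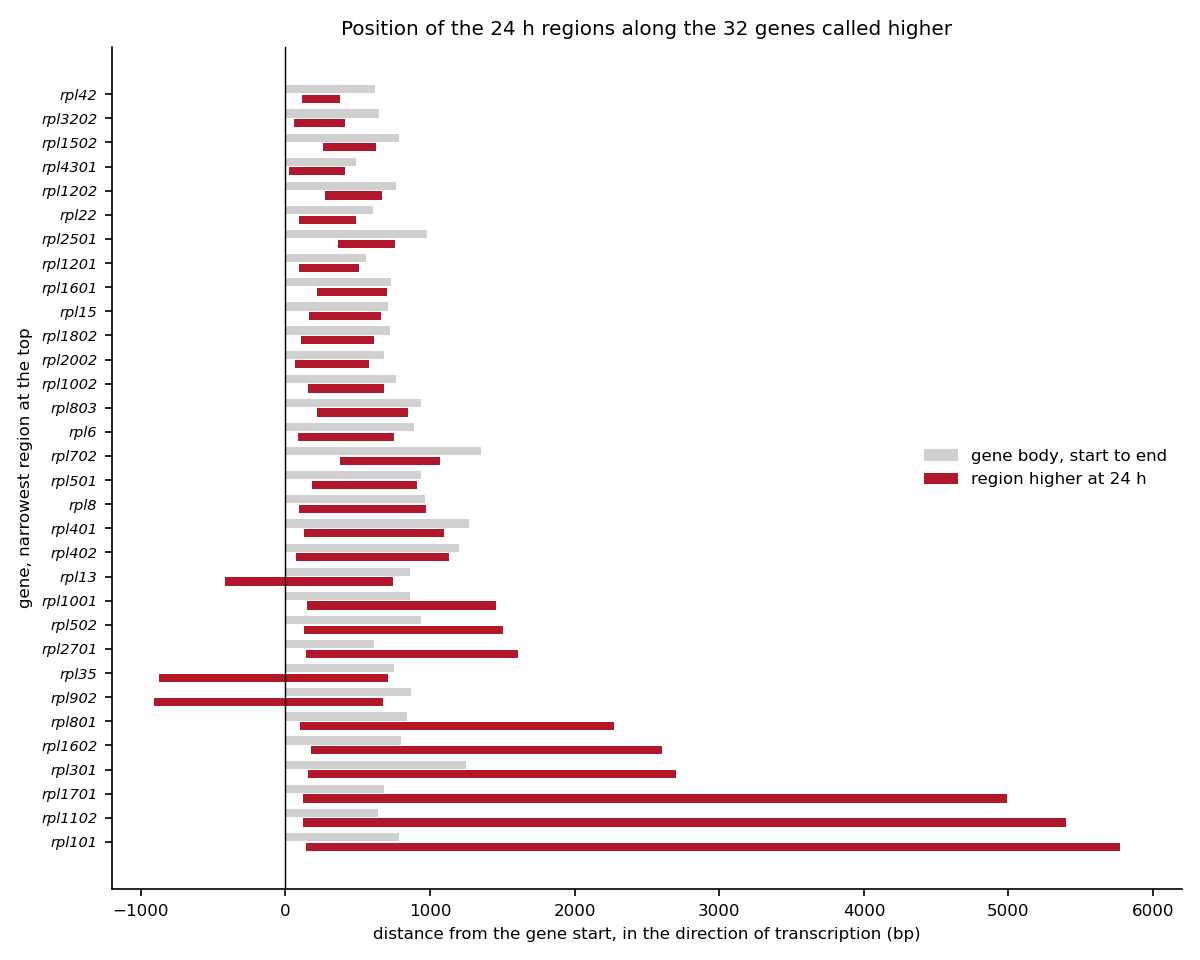
Position of the region (red) along each of the 32 large-subunit genes called higher at 24 h (grey), in bp from the gene start in the direction of transcription, with the narrowest region at the top. In 29 genes the region began after the gene start, and the widest regions reached far past the gene end.

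The 23 genes that held at least 50% of their region had narrow regions, with a median width of 513 bp and a median density of 38.6 normalised reads per kb at 24 h. In the other 9, which were rpl1701, rpl101, rpl1102, rpl301, rpl1602, rpl801, rpl2701, rpl35 and rpl902, the median width was 2431 bp and the density 12.7 per kb. A neighbouring gene held most of the region in 6 of these 9, among them rps001 for the region of rpl2701, with 60.5%. The 5 highest 24 h means among called members came from wide regions shared with neighbours (rpl1701, rpl101, rpl1102, rpl301 and rpl1602), and the highest density, at rpl8, from a region that lay for 99.8% inside the gene. Over the 31 called regions the median width was 690 bp and the median density 33.8 per kb, against 1222 bp and 22.2 per kb over all 453 regions higher at 24 h. The median 24 h mean was 21.9 normalised reads, against 24.3 over those 453 regions. These medians are descriptions, without a test of the difference.

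Copies of a protein's gene were compared by their calls. Of 32 families of 2 or 3 copies, 5 had every copy higher at 24 h (rpl4, rpl5, rpl10, rpl12 and rpl15), 13 had copies of unlike call, and 14 had none higher, of which 6 had no copy under any region (rpl21, rpl35A, rpl36, rpl37, rpl38 and rpl41). The families of unlike call were 7 when the midpoint of the region had to lie in the gene and 6 when each region went to the gene with the longest overlap. Among the 7 pairs with both copies higher, the larger 24 h mean was 1.03 to 2.84 times the smaller, and within 1.5 times in 5. These means are totals over regions of unlike width. In normalised reads per kb at 24 h, rpl401 and rpl402 had 35.4 and 31.4, and rpl1201 and rpl1202 had 55.5 and 55.6. Next, rpl15 and rpl1502 had 39.7 and 52.0, and rpl1601 and rpl1602 had 46.6 and 21.9. Further apart, rpl1001 and rpl1002 had 10.0 and 36.1, rpl501 and rpl502 had 27.6 and 5.14, and rpl801 and rpl803 had 12.7 and 33.8. For eL15, rpl15 had 52.7 and 43.0 normalised reads in libraries B and C and rpl1502 had 17.9, 55.9 and 17.0 in A, B and C, with means of 19.9 and 18.9 at 24 h, against 0.770 at 0 h for both. In eL18 the copies were unlike: rpl1802 had 64.7 and 58.0 in libraries B and C, with a mean of 25.3 at 24 h over a region that also lies wholly within a gene annotated as 6-phosphofructo-2-kinase, while rpl1801 had 7.00 in library C alone, with a mean of 2.17, both against 0.770 at 0 h. For uL23, rpl2501 had 23.2 and 32.0 in libraries B and C and a mean of 11.8 at 24 h, while rpl2502 had 8.78 in library B and a mean of 2.53. The 2 genes for uL15, rpl2802 and rpl2801, had means of 25.4 and 9.32 at 24 h but were both listed with a p of 1. The 2 genes for eL24 had 28.7 normalised reads in library B (rpl2401) and none above the minimum (rpl2402). A difference between copies in 24 h level was not tested, since the table compares times and not regions.

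**Figure D3:**
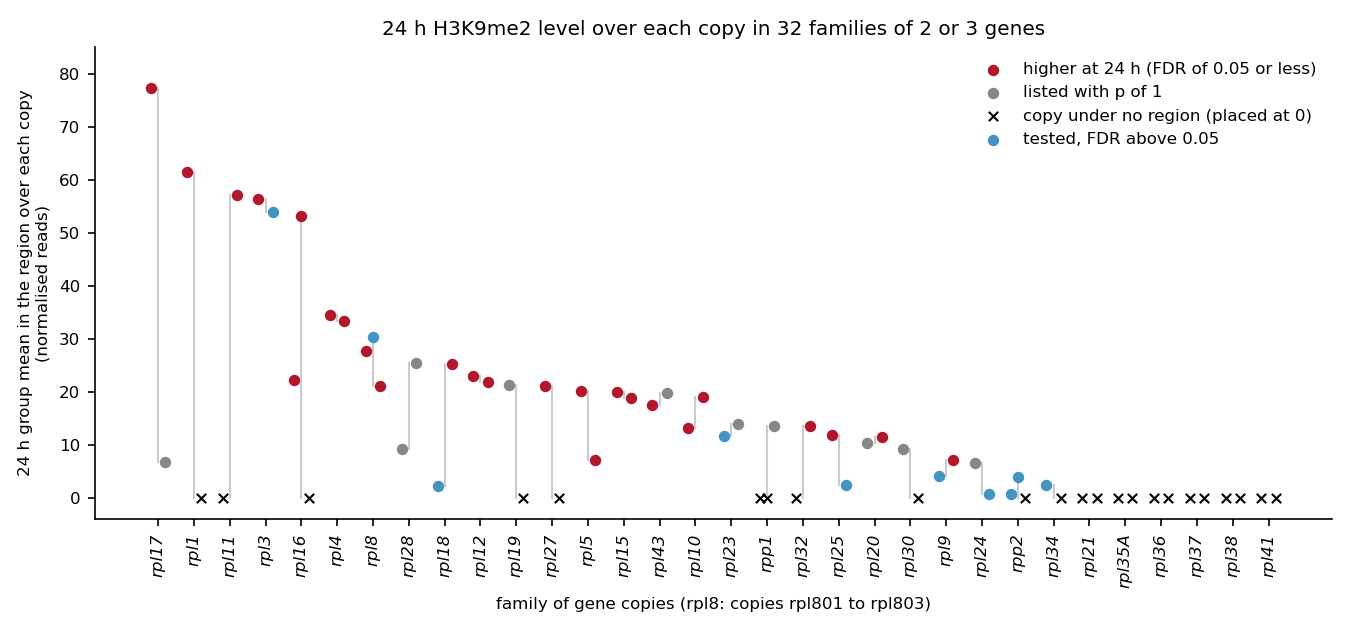
Group mean at 24 h (normalised reads) of the region over each gene copy, for the 32 families of 2 or 3 copies ordered by their highest copy, coloured by call, with crosses at 0 for copies under no region. In these means, which are not divided by region width, the copies of rpl4, rpl12 and rpl15 lie close together, while those of rpl17, rpl16 and rpl18 lie far apart. Per kb, rpl1601 (46.6) was above rpl1602 (21.9), in reverse of their means. The order held per kb for rpl1701 (15.9) above rpl1702 (2.83) and for rpl1802 (50.2) above rpl1801 (1.24). Of the region of rpl1701, 88.7% lay over osh2.

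Coding identity between copies ran from 66.1% to 99.6% with a median of 85.6%, and 10 of 40 pairs shared an identical stretch of at least 50 bp. Besides rpl301 with rpl302 and rpl1201 with rpl1202, the longest was 149 bp in rpl1001 with rpl1002. In those 3 pairs a read could match both copies over a long stretch, and reads assigned to either copy are uncertain. Unlike calls were found at long identical stretches, such as rpl301 with rpl302 and rpl802 with rpl803 (89 bp), and at short ones, such as rpl1801 with rpl1802 (23 bp), while rpl401 with rpl402 and rpl15 with rpl1502, at 41 bp each, had like calls.

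Library values show what each call rests on. The deposited means were resolved into whole counts per library, under the assumption of 5 libraries per group. The search allowed signal in at most 3 libraries at 24 h and 2 at 0 h, so these limits were set in advance. With them, 2175 of 2192 regions were resolved at 24 h and 2177 at 0 h. All 31 called regions over members had signal in libraries B and C at 24 h, and 9 of them also in A, with median values of 55.9 in B and 43.0 in C. Of the 451 resolved regions higher at 24 h in the whole table, 320 had signal in 2 libraries and 131 in 3. Signal in 2 or 3 libraries is thus shared by all resolved regions called higher. The 12 regions listed with a p of 1 had signal in library B alone in 10 cases and in B and C in 2. Their 24 h means were 6.52 to 27.8 normalised reads, and 10 of the 12 lay within the range of the called regions, with rpl2401 and rpl1702 below it. In 11 of the 12, less than 50% of the region lay inside the member. Over the whole table, 954 of 2175 resolved regions had 24 h signal in library B alone, so the dominance of B is shared by the table. Leaving out library B, the median log2 change over member regions was 2.36 in place of 4.25.

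**Figure D4:**
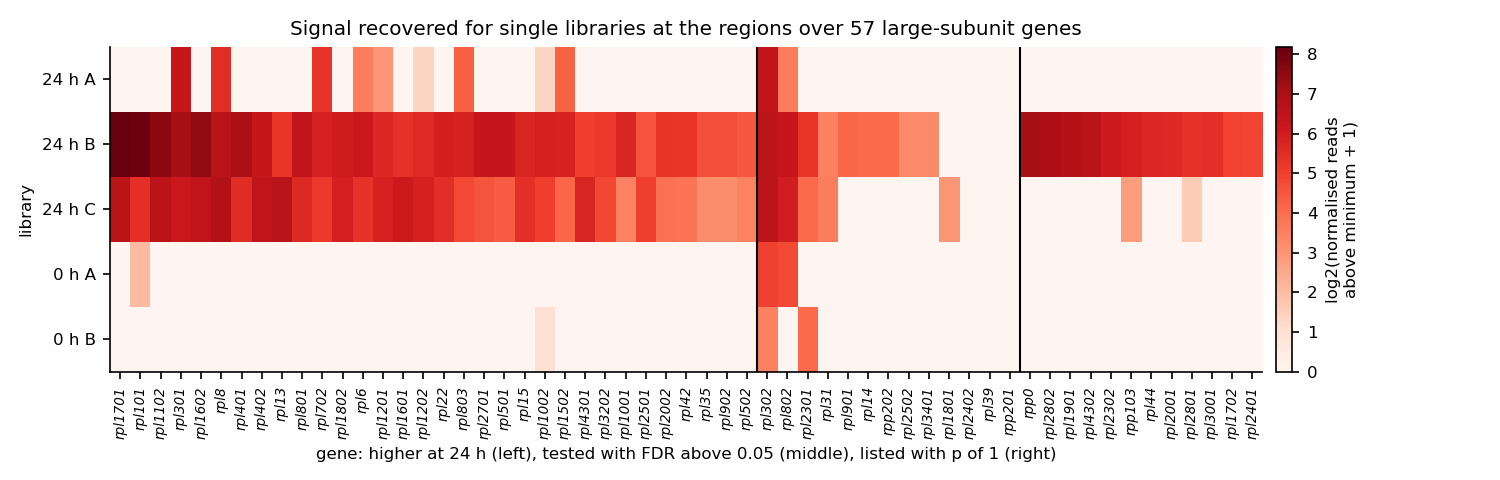
Recovered signal per library above the minimum, as log2(normalised reads + 1), at the regions over 57 large-subunit genes, with 24 h libraries A, B and C above 0 h libraries A and B. Every gene called higher (left block) has signal in 24 h libraries B and C, while the block listed with a p of 1 (right) rests nearly throughout on library B.

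Called genes had the longer coding sequences at the median. The median coding length was 594 bp in the 32 genes called higher, 420 bp in the 13 tested without passing, 447 bp in the 12 listed with a p of 1, and 333 bp in the 25 under no region. Split at the members' median of 448.5 bp, 25 of 41 genes at or above it (61.0%) and 7 of 41 below it (17.1%) were called higher. Among all protein-coding genes the same split gave 11.5% of those at or above 448.5 bp and 4.04% of those below. The difference between the length classes was not tested in either set, nor was the part of length in the members' calls. The shortest members, rpl4101 and rpl4102 with 78 coding bases, lay under no region. Median GC content was 45.3% in called genes, 42.4% in those tested without passing, 43.9% in those listed with a p of 1 and 39.7% in those under no region, against 36.8% in all protein-coding genes, with no test of GC against call. An intron was annotated in 12 of the 32 called genes and in 18 of the 25 under no region.

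**Figure D5:**
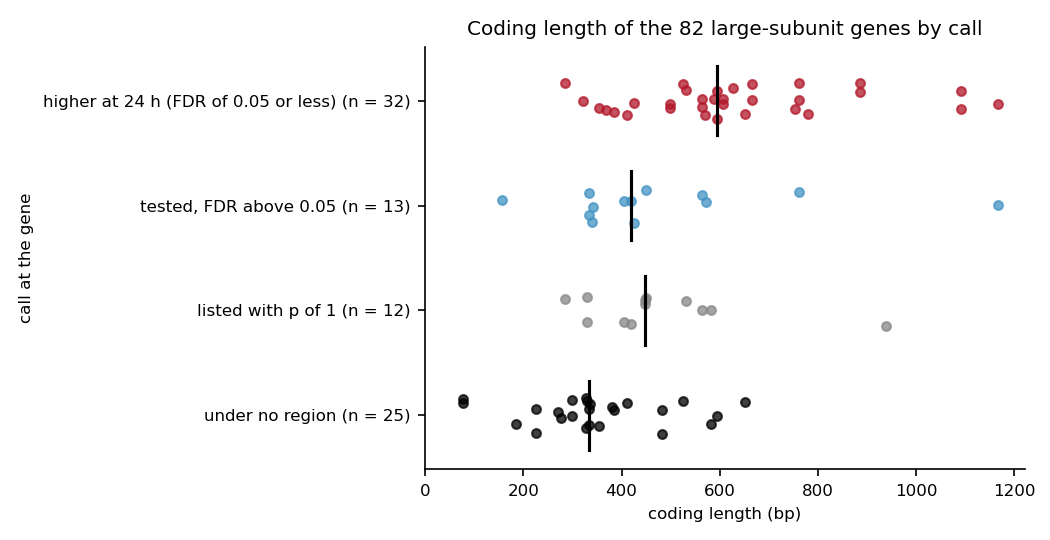
Coding length in bp of the 82 large-subunit genes by call, with 1 point per gene, vertical scatter for display and a black bar at the median. The medians are 594 bp for the genes called higher and 333 bp for those under no region.

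The promoter motifs of ribosomal protein genes were counted in the members by call. An exact HomolD box (CAGTCACA, or TGTGACTG for the other strand) stood between 250 bp before and 50 bp after the gene start in 53 of 82 members (64.6%), against 2.68% of all 5113 promoters, and its median position was 51 bp before the gene start. It was found in 23 of 32 called genes (71.9%) and in 15 of 25 genes under no region (60%). Of the other classes, 7 of 13 genes tested without passing (53.8%) and 8 of 12 listed with a p of 1 (66.7%) had it. HomolE (ACCCTACC, or GGTAGGGT) was found in 20 of 82 members (24.4%), against 1.62% of all promoters. By call, it was in 9 of 32 called genes (28.1%) and 3 of 13 tested without passing (23.1%). It was also in 5 of 12 listed with a p of 1 (41.7%) and 3 of 25 under no region (12%). These shares were not tested against each other. The upstream sequences of rpl8, with the highest density at 24 h, and of rpl39, 1 of 3 members at the table's minimum at both times, are shown for comparison with the same capitals (RefSeq, ASM294v3; rpl8 chrII:2045355-2045474 and rpl39 chrIII:1640896-1641015, both plus strand).
rpl8 upstream: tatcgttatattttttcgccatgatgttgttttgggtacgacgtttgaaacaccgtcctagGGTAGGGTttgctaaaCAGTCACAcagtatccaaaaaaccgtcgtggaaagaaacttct
rpl39 upstream: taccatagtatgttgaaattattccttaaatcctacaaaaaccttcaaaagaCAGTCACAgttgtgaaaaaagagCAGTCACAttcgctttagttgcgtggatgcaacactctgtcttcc
HomolD matches numbered 2 in rpl39, 1 in rpp201 and 0 in rpl2402, the members at the minimum, and 1 in rpl8 and 2 in rpl1202, which were called higher. A match describes these letters only.

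Set beside other gene lists, the small-subunit ribosomal protein genes had 14 of 55 under a region higher at 24 h (25.5%), with the highest 24 h means at rps3 (71.3 normalised reads), rps102 (32.6) and rps1602 (27.7, in the region of rpl13, of which 27.1% lay over rps1602 and 64.1% over rpl13). The genes for the large subunit of the mitochondrial ribosome had 1 of 31 (3.23%), mrpl9 with a mean of 11.7 at 24 h. Genes for factors that assemble the 60S subunit in the nucleus had 6 of 52 (11.5%), near the 10.5% of all genes, and their highest, rrp5, is the gene that shares its region with rpl101. None of these lists had a gene under a region lower at 24 h. The differences between the lists were not tested.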

How the data were processed

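Per the submitters' processing notes, the tools were DiffBind 1.16.3 with DESeq2, MACS2 2.1 and Bowtie2 2.2.7 on ASM294v2, with no roles given. The authors deposited log2 group means and a log2 fold (0 h minus 24 h) per region, whose sign was turned here. The authors deposited a p-value and FDR for each region, and this FDR equals the Benjamini-Hochberg adjustment over the 1385 regions with a p below 1. The other 807 are listed with a p of 1.

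Where values per library had been planned, the tables hold means, so the authors' FDR of 0.05 was used. Members, lists and motifs were chosen with earlier results of these data known. Named in full were the 12 highest called members, both copies of the 10 families with the largest 24 h difference where both lie under a region, single genes called higher and the 2 members on either side of the threshold.

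Gene models came from RefSeq ASM294v3, whose chromosome lengths match the deposited regions. Coding sequences were aligned with Biopython 1.88. Means were resolved into counts per library (relative tolerance 3e-14) for 2174 regions at both times, and limma 3.58.1 (mean trend) was run on log2(value + 1). The fit was first run on simulated data with counts drawn in every library. In the recovered values, libraries without recovered signal are fixed at 0, so the simulation does not cover that setting. Nothing says that replicates were separate cultures, so the p-values cover a spread between libraries that may be technical. Depth per library is unknown, counts cover counting error only, and a floor of 3 counts per library bounds folds.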

Additional observations from a re-analysis of the deposited data

Results flagged for a closer look

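Among 5 recovered library values per time, the highest stood apart from the others at 24 h in 21 of the 54 members with signal and at 0 h in 4 of 5. A group in which all but 1 library are at the minimum is always set apart. This held for 16 member regions at 24 h and for each of the 4 members at 0 h, so their outcome was fixed. No chance rate applies, because libraries without recovered signal are fixed at 0. In 20 of the 21 the high library at 24 h was B. Among the genes called higher these were rpl101 with 260 normalised reads, rpl501 with 76.7 and rpl1001 with 51.9. Among the genes listed with a p of 1 they were rpp0 (135), rpl2802 (123), rpl1901 (103), rpl4302 (95.0), rpl2302 (66.3), rpp103 (58.3), rpl44 (49.5), rpl2001 (47.9), rpl3001 (42.3), rpl2801 (40.7), rpl1702 (29.5) and rpl2401 (28.7). Among the genes tested without passing they were rpl901 (16.8), rpl14 (16.0), rpp202 (16.0), rpl2502 (8.78), rpl3401 (8.78) and rpl1801, the exception, with 7.00 in library C. At 0 h the values were 26.3 for rpl802 and 3.2 for rpl101 in library A, and 16.0 for rpl2301 and 0.942 for rpl1002 in library B.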

How the results depend on the processing

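Of 58 alternatives computed, 34 left a result at its value or, for counts, within 1.5 times, and 24 moved it. The 34 include the alternatives in which the count of genes lower stayed at 0. A reversed direction could be found only for the median log2 change, since counts and densities cannot turn sign. With most 0 h means at the minimum that median could hardly turn, so the lack of a reversal is no evidence of stability. The count of 32 genes called higher ran from 22 (each region given to the gene with the longest overlap) to 34 (gene body extended by 500 bp). At an FDR of 0.01 it was 24, and no gene was lower under any alternative that remade the calls. The share of all protein-coding genes was computed only for an overlap of 1 bp at an FDR of 0.05 (10.5%). Whether the members' excess over all genes holds under the other rules was therefore not tested. limma on recovered values gave 0 genes called higher and 0 families of unlike call; over all regions it called 0 of 2174, with 73 higher at an unadjusted p under 0.05. Families of unlike call, 13 in the report, were 7 with the region midpoint in the gene body and 6 with the longest overlap, and genes under any region, 57 in the report, were 30 with the midpoint and 30 with at least 50% of the region inside the gene, chosen after seeing the data. Counting rpl701, whose means were 10.9 at 24 h and 7.16 at 0 h (FDR of 0.862 in the authors' deposited table), as a member left 32 genes higher and gave 14 families of unlike call. The median log2 change of 4.25 was 4.66 with the midpoint, 4.57 for regions with a p below 1, 2.77 with means bounded below by 3 counts per library, 2.53 when tested regions were centred on the same median (a shift of 1.72), and 4.78 at the same total. The median 24 h density of 15.0 normalised reads per kb was 38.3 with the midpoint and 33.8 for regions at an FDR of 0.05 or less. Leaving out each library in turn remade no call, so its counts (32 higher, 0 lower, 13 families of unlike call) were fixed by signal in at least 2 libraries at 24 h and are no evidence of stability; the median log2 change ran from 2.36 to 4.56 and the median density from 5.41 to 18.4 per kb, and both lowest values came without 24 h library B. HomolD matches on the strand of the gene only were in 38 genes (46.3%), against 1.58% of all promoters. Matches with 1 mismatch were in 79 (96.3%), against 16.2% of all promoters. No paired analysis was possible because the deposited columns are group means that carry no replicate number. The causes of these shifts were not tested.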
